A study of Rattus norvegicus with 8 samples.

Results

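The genes described here encode the cornified envelope of squamous epithelium and 2 families that act around it, the Spink serine protease inhibitors and the kallikrein proteases. Members were taken by symbol: every Sprr, Lce, Tgm, Spink and Klk gene, involucrin, the S100-fused family with its fillers, and a set of scaffold, surface and secreted proteins of the upper layers. The symbols matched 72 of the 29884 genes in the deposited table. They were measured by RNA sequencing in the cervix of wild-type pregnant Sprague-Dawley rats. Lipopolysaccharide (LPS), the surface glycolipid of Gram-negative bacteria, was injected into the peritoneum of 4 animals on gestational day 17 at 100 µg/kg, and 4 controls received phosphate-buffered saline (PBS) in the same volume. The cervix was taken 12 hours later, and the comparison asks how its transcripts differ after a bacterial stimulus. The labels give no age and no position within the cervix, and each library holds the RNA of the whole tissue piece.

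As a squamous cell nears the surface, it builds a protein shell under its membrane. Envoplakin and periplakin lay the scaffold, transglutaminases cross-link involucrin, small proline-rich and other precursor proteins onto it, and lipids are then attached outside. In skin, kallikreins cut the desmosomes between the outermost cells, and Spink proteins hold such proteases in check. The lower cervix of rodents is lined by stratified squamous epithelium, and the canal above it by columnar, mucus-forming cells.

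Libraries held between 33191039 (PBS replicate 4) and 40634384 counts, and 3 counts corresponded to at most 0.0899 CPM (counts per 1000000, after TMM scaling between libraries). PBS replicate 1 and LPS replicate 2 deviated from their group means in the most similar way of 16 pairs of a PBS and an LPS library (correlation 0.24), and counts without both are given below. Markers of several other cell types differed between the groups, and over all genes tested 9.49% were called higher in LPS and 7.45% lower. Higher in LPS were 8 of 9 tested neutrophil markers (summed level 51.5 to 72.8 CPM in PBS, 463 to 1747 in LPS). So were 7 of 9 macrophage and monocyte markers (625 to 960 against 1272 to 1934 CPM) and 5 of 10 fibroblast and stroma markers. Lower were 8 of 12 smooth muscle markers (4949 to 13671 against 4158 to 6047 CPM) and 6 of 9 red cell markers (738 to 2289 against 124 to 680 CPM). The summed columnar markers overlapped, at 18440 to 29614 CPM in PBS and 23537 to 25086 CPM in LPS, and 2 of 15 were lower. Of the T, NK and B cell markers 3 of 9 were higher, of endothelial markers 1 of 8 was lower, and of acinar and salivary markers 0 of 2 were called by edgeR (1 at an unadjusted p under 0.05). Their part in the results below was not tested, and in bulk tissue fewer cells of a type and less RNA per cell cannot be told apart.

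Squamous epithelium was present in every library by its defining markers, which are no members. The keratin of its basal layer, Krt5, ranged from 2320 to 4047 CPM in PBS and from 2177 to 3054 CPM in LPS, and its partner Krt14 from 498 to 989 and from 634 to 970 CPM. Neither was called different (Krt5 log2 fold change -0.30, 95% interval -0.77 to 0.16; Krt14 0.12, -0.40 to 0.64), nor was Tp63, the master regulator of the lineage (0.14, -0.32 to 0.61). Among 14 tested squamous markers, 3 keratins of the upper layers fell (Krt13, Krt1 and Krt78) and Krt17, a keratin of wounded epithelium, rose. Over all genes tested, 7.45% were called lower and 9.49% higher. Among the same 14, the keratins Krt10 (log2 fold change -0.30, adjusted p = 0.539) and Krt6a (-0.71, adjusted p = 0.380) were not called. The median log2 fold change of the 14 was -0.52. Krt15, a further keratin of the list, ranged from 2464 to 4284 CPM in PBS and from 1929 to 2285 CPM in LPS, without overlap. It was not called (log2 fold change -0.57, 95% interval -0.95 to -0.18, adjusted p = 0.0523). Krt13 fell by 4.53 on the log2 scale (SE 0.45, adjusted p = 0.00085). Krt1 fell by 2.40 (SE 0.40, adjusted p = 0.0061). The summed level of the list was 8127 to 14279 CPM in PBS and 5776 to 7059 CPM in LPS, without overlap. Krt13 alone gave 1383 to 3536 CPM of it in PBS and 54.3 to 162 CPM in LPS, and the sums overlap without Krt13. Loricrin, the main envelope protein of skin, stood at or under 3 counts in every library. Krt5, Krt14, Krt15, Tp63, Krt17, Krt78, Krt10 and Krt6a were picked out after their values were seen.

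Most of the late envelope programme of skin was scarcely detected in this cervix. Of the 72 members, 25 had no count in any library, but 13 of these were kallikreins and 5 were Spink inhibitors. A further 23 had counts too low to test, with at most 40 counts (1.20 CPM) in a library. Of those, 6 were kallikreins and 2 were Spink inhibitors. Of 11 plakins and other scaffold or secreted members, 9 were tested. Scarce counts showed most plainly in the late cornified envelope genes, since 6 of 7 had no count and Lce3b had 1. Involucrin, the classical envelope precursor, had 3 counts in PBS and 7 in LPS over 4 libraries each. Filaggrin (Flg), which bundles keratin in skin, had 2 and 0, and Flg2 4 and 0. The related fused genes Crnn and Rptn had 47 and 30 counts in PBS and 25 and 3 in LPS. No direction is drawn from these untested genes.

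Among 24 members with enough counts to test, 3 of 4 Spink inhibitors fell after LPS. Of 9 plakins and other scaffold or secreted members 3 fell, 1 rose and 5 were not called, and of 3 small proline-rich members 1 fell and 1 rose. Of 4 kallikreins 1 fell, and of 4 transglutaminases 0 were called. edgeR's quasi-likelihood test with Benjamini-Hochberg adjustment called 2 higher in LPS (Sprr2b and Dmkn) and 8 lower (Evpl, Ppl, Calml3, Sprr1a, Spink7, Spink13, Spink8 and Klk1c3). Over all 16117 genes tested, 9.49% were called higher and 7.45% lower, 16.9% in all. Every LPS library lay above every PBS library for 3 of the 24, against 12.9% of all genes tested, and below for 8, against 10.5%. The median log2 fold change of the 24 was -0.75, beside 0.01 over all genes tested. A gene seen in only 1 group can pass the filter through that group, so these counts describe the members that passed and not all 72. Spink7 and Spink13 passed through the PBS group alone, so their being tested already depended on a high PBS level. Without PBS replicate 1 and LPS replicate 2, 1 member was called higher and 6 lower (7.02% and 5.39% of all genes tested then), and with any 1 library left out, 1 or 2 higher and 5 (without PBS replicate 2) to 7 lower.

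**Figure D1:**
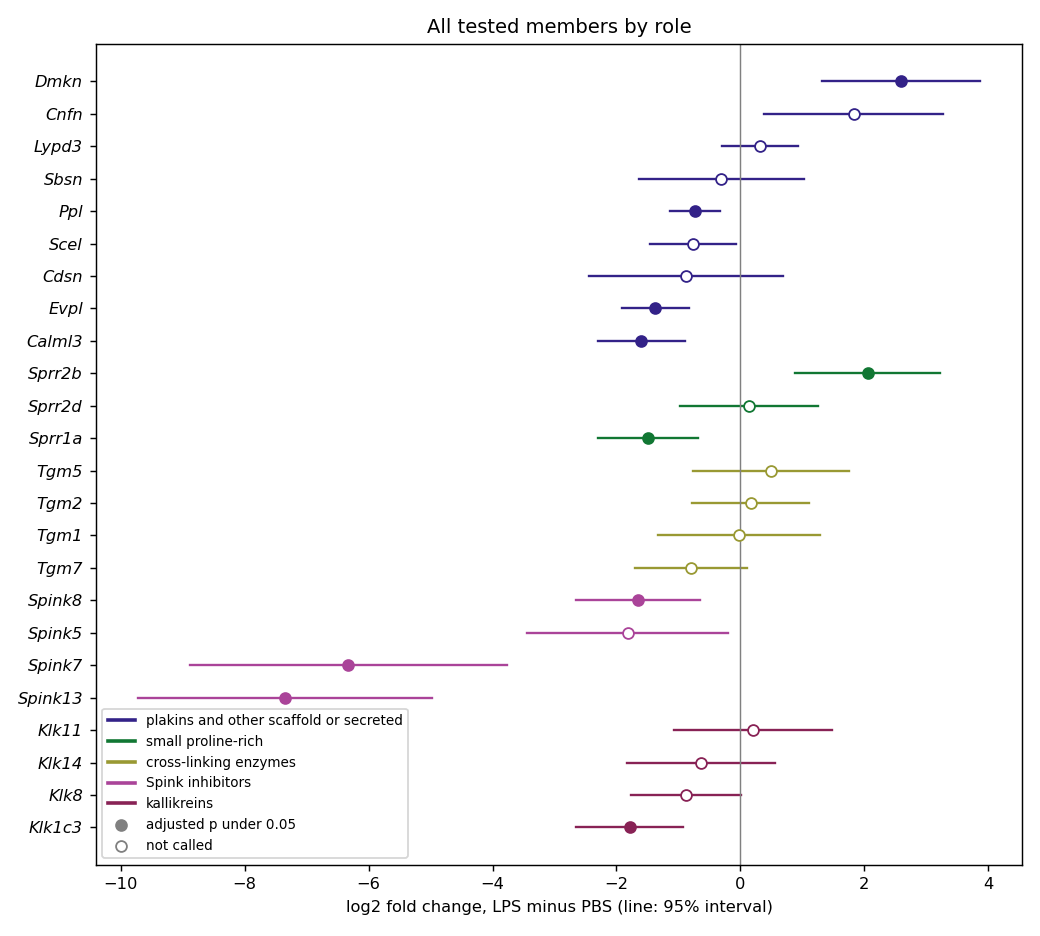
Log2 fold change (LPS minus PBS, horizontal axis) of the 24 tested members, grouped by role, with 95% intervals from edgeR and 4 libraries per group; filled points mark the 10 members called at an adjusted p under 0.05. Spink13 and Spink7 lie farthest to the left, and the intervals of the 4 transglutaminases all span 0.

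Transcripts of both plakins, whose proteins form the scaffold of the envelope, were lower after LPS. Envoplakin (Evpl) measured 213, 334, 280 and 419 CPM in PBS replicates 1 to 4 and 121, 119, 84.6 and 156 CPM in LPS replicates 1 to 4. Every LPS library was below every PBS library, and LPS replicate 3 was the lowest. The level fell by 1.37 on the log2 scale (SE 0.24, adjusted p = 0.0069), a 2.59-fold difference, and the call held in all 17 alternatives tried.

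Its partner periplakin (Ppl) measured 354, 318, 293 and 269 CPM in PBS and 247, 186, 133 and 179 CPM in LPS. The groups again did not overlap, but the highest LPS library came close to the lowest PBS library. The level fell by 0.73 (SE 0.18, adjusted p = 0.0269). It was no longer called when PBS replicate 1, 2 or 3 or LPS replicate 2 or 4 was left out, with adjusted p from 0.0521 to 0.0707 and log2 fold changes from -0.75 to -0.66, or when PBS replicate 1 and LPS replicate 2 were both dropped (-0.66, adjusted p = 0.0969).

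Calml3, an epithelial relative of calmodulin, was counted among the scaffold and secreted members. It measured 120, 237, 138 and 222 CPM in PBS and 70.9, 35.96, 80.2 and 49.8 CPM in LPS. All 4 LPS libraries were lower than the PBS libraries, of which replicates 2 and 4 stood highest. The level fell by 1.60 (SE 0.31, adjusted p = 0.0104), 3.03-fold.

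Dermokine (Dmkn), a protein secreted by differentiated keratinocytes, went the other way from a low level. It measured 0.690, 1.66, 1.16 and 1.41 CPM in PBS and 5.26, 1.92, 9.60 and 12.9 CPM in LPS. LPS replicate 2 was only just above the highest PBS library, and the other 3 LPS libraries were well above it. The level rose by 2.59 (SE 0.56, adjusted p = 0.0166), 6.03-fold, and limma-voom did not call it without (2.35, adjusted p = 0.0729) or with library weights (2.11, adjusted p = 0.0580). In the RefSeq gene order it lies between Gapdhs, a sperm glycolytic enzyme gene, and the member Krtdap, and the member Sbsn follows on the far side of Gapdhs. Sbsn, suprabasin, was not called (log2 fold change -0.31), and Krtdap had 1 count in PBS and 6 in LPS.

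The remaining tested scaffold and surface members were not called. Lypd3, a membrane-anchored protein of suprabasal cells, ranged from 77.3 to 133 CPM in PBS and from 79.5 to 189 CPM in LPS (log2 fold change 0.32, 95% interval -0.30 to 0.94, adjusted p = 0.455). Cornifelin (Cnfn), an envelope component, measured 0.281, 0.0743, 0.419 and 0.240 CPM in PBS and 0.420, 1.82, 0.937 and 0.465 CPM in LPS. The Cnfn groups barely missed overlapping, in libraries of 3 to 71 counts. Its log2 fold change was 1.83 (0.38 to 3.27, adjusted p = 0.0827), DESeq2 called it (adjusted p = 0.0354), and without LPS replicate 2 it was 1.24. Sciellin (Scel, -0.77) and corneodesmosin (Cdsn, -0.88) had adjusted p-values of 0.119 and 0.414.

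**Figure D2:**
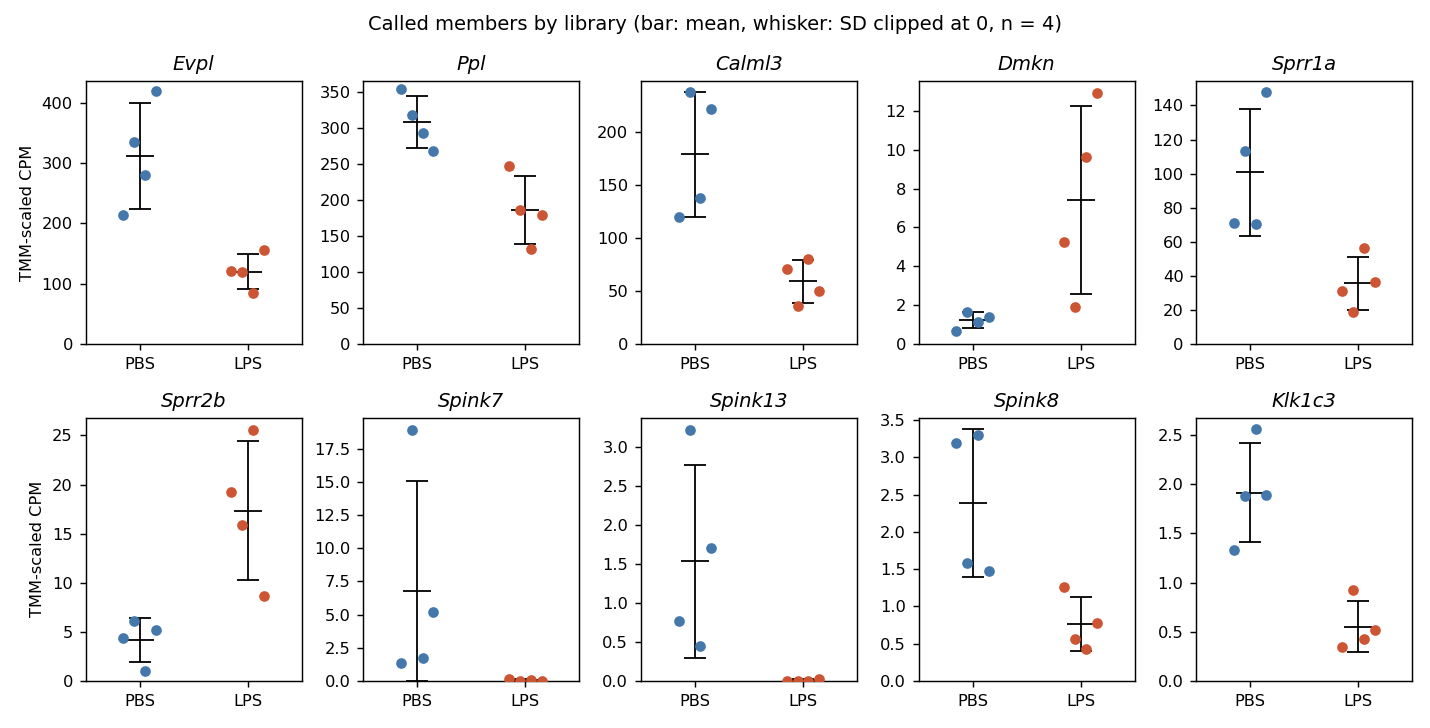
TMM-scaled CPM (linear axis from 0, scaled to each gene) of the 10 called members in each of 4 PBS and 4 LPS libraries, 1 point per library, with the mean as a bar and the SD as whiskers that stop at 0. Sprr2b and Dmkn sit higher in LPS, the other 8 sit lower, and 3 of the 4 LPS libraries hold no Spink13 count.

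Small proline-rich proteins are short cross-bridging precursors that transglutaminases stitch into the envelope, and their genes stand side by side in the genome. They did not move as a block: Sprr1a fell, Sprr2b rose, and Sprr2d was not called. Sprr1a measured 71.1, 113, 70.6 and 148 CPM in PBS and 30.9, 18.9, 56.3 and 36.7 CPM in LPS. All LPS libraries were below all PBS libraries, with LPS replicate 2 the lowest. The level fell by 1.49 (SE 0.36, adjusted p = 0.0241), 2.82-fold.

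Sprr2b measured 4.34, 6.09, 1.03 and 5.19 CPM in PBS and 19.2, 15.9, 25.6 and 8.61 CPM in LPS. Each LPS library exceeded each PBS library, with LPS replicate 4 the nearest to PBS. The level rose by 2.06 (SE 0.51, adjusted p = 0.0286), 4.16-fold. Calls of both genes depended on single libraries. Sprr1a missed the threshold when PBS replicate 2 or 4, or LPS replicate 1 or 4, was dropped (adjusted p 0.0516 to 0.0665, log2 fold change -1.50 to -1.25). Sprr2b missed it when PBS replicate 1, 2 or 4, or LPS replicate 1 or 3, was dropped (adjusted p 0.0506 to 0.0690, log2 fold change 1.81 to 2.30), or with PBS replicate 1 and LPS replicate 2 both dropped (2.12, adjusted p = 0.0825).

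Sprr2d measured 44.2, 94.6, 15.4 and 79.0 CPM in PBS and 65.3, 57.4, 92.7 and 40.6 CPM in LPS. Its PBS libraries spanned the whole LPS range (log2 fold change 0.13, 95% interval -0.98 to 1.25, adjusted p = 0.878). Within a library, Sprr2b gave 14.6 to 61.1 counts per 1000 Sprr1a counts in PBS and 235 to 838 in LPS. Sprr2d gave 218 to 836 per 1000 Sprr1a counts in PBS and 1106 to 3030 in LPS. Neither ratio overlapped between groups, which describes an unequal difference in these libraries and not which of the genes changed. These ratios were chosen after the values were seen and carry no test.

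Several Sprr2 genes start with near-identical sequence, which limits how reads can be assigned among them. In RefSeq's gene order on the rat assembly GRCr8, the stretch from Sprr2a2 to Sprr2f holds 12 protein-coding genes, 4 of them members, 10 with a row in the table and 7 tested. Of those 7, 5 were called higher and 0 lower by edgeR, and an unadjusted p under 0.05 gave the same counts. They were Sprr2b and 4 neighbours with placeholder symbols, picked out after their values were seen. Over all genes tested, 9.49% were called higher and 7.45% lower. LOC103691627 and LOC120100584 passed the filter through the LPS group alone, so their being tested already depended on a high LPS level. Reads may be shared among these alike genes, so their calls are not independent. Start sequences were matched for 11 genes of the stretch. To show how alike 8 of them are, their RefSeq bases from each annotated start onward, 5′ to 3′ on GRCr8, follow, with bases that differ from Sprr2b in capitals.
Sprr2b (chr2:180548428-180548477, plus strand): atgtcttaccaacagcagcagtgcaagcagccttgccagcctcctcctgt
LOC102550890 (chr2:180451244-180451293, minus strand): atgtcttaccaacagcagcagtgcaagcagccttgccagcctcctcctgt
LOC102552940 (chr2:180473678-180473727, minus strand): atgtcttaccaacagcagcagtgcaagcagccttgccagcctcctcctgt
LOC103691627 (chr2:180494239-180494288, plus strand): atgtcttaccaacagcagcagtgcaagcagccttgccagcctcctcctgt
LOC120100584 (chr2:180511568-180511617, plus strand): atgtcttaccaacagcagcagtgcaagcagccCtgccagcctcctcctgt
Sprr2d (chr2:180566233-180566282, minus strand): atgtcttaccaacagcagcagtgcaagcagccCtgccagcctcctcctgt
Sprr2a2 (chr2:180415180-180415229, plus strand): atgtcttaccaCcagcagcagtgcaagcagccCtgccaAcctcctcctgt
Sprr2f (chr2:180685587-180685636, plus strand): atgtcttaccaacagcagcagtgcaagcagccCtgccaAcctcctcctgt
All 8 open with the start codon. Of 50 bases, LOC102550890, LOC102552940 and LOC103691627 equal Sprr2b in 50, LOC120100584 and Sprr2d in 49, Sprr2f in 48 and Sprr2a2 in 47. The 3 not printed, LOC102550512, LOC102552542 and LOC134485793, equal it in 9, 11 and 17, and likeness beyond these bases was not measured. LOC102550512 and LOC102552542 do not open with a start codon at their annotated start. Their coding starts were therefore not compared with that of Sprr2b, and these low matches do not show that the genes are unlike. LOC102550512, which lies between Sprr2d and Sprr2f, ranged from 9.51 to 50.2 CPM in PBS and from 28.5 to 92.3 CPM in LPS, and was not called (log2 fold change 0.56, 95% interval -0.68 to 1.80, adjusted p = 0.519).

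A pair of the placeholder genes was nearly absent from PBS. LOC103691627 had 2 counts over the 4 PBS libraries and 553 over the 4 LPS libraries, a ratio of 265 (exact 95% interval 73.1 to 2197), with 102, 46, 374 and 31 counts in LPS replicates 1 to 4 (adjusted p = 0.0047). LOC120100584 had 3 and 385 counts, a ratio of 123 (41.8 to 600), and 87, 26, 240 and 32 counts in LPS (adjusted p = 0.0057). LPS replicate 3 was the highest in both. These ratio intervals cover counting error only, not the spread between animals. LOC102552940 measured 0.599 ± 0.358 CPM in PBS and 7.15 ± 5.44 CPM in LPS (SD, n = 4) and rose by 3.58 (SE 0.63, adjusted p = 0.0075). LOC102550890, at 5.84 ± 2.39 and 15.3 ± 5.98 CPM, rose by 1.39 (SE 0.41, adjusted p = 0.0479). That call ended when any 1 library except LPS replicate 4 was left out (adjusted p 0.0605 to 0.116), with limma-voom and with no filter. Without LPS replicate 3, the log2 fold changes of LOC103691627, LOC120100584 and LOC102552940 were 6.51, 5.73 and 2.90, all called, in place of 7.74, 6.74 and 3.58, and without PBS replicate 1 that of LOC120100584 was 7.67.

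The sum over the 8 alike genes is not moved by reads counted for the wrong copy among them, but reads that fit several copies may have been left out of it, since their handling is not given in the sources used here. It was 56.3, 108, 19.0 and 92.8 CPM in PBS and 109, 95.1, 172 and 62.7 CPM in LPS, and the groups overlapped (68.9 ± 39.7 against 110 ± 45.7, SD, n = 4). Sprr2d held 78.5% to 87.9% of that sum in PBS and 54.0% to 64.7% in LPS. Without Sprr2d, the other 7 summed to 12.1, 13.0, 3.60 and 13.8 CPM in PBS and 44.0, 37.7, 79.0 and 22.1 CPM in LPS, and the groups did not overlap. LOC102550512 and LOC102552542, whose coding starts were not compared, are in neither sum. The set was chosen with the values in view, and no test was made of it.

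**Figure D3:**
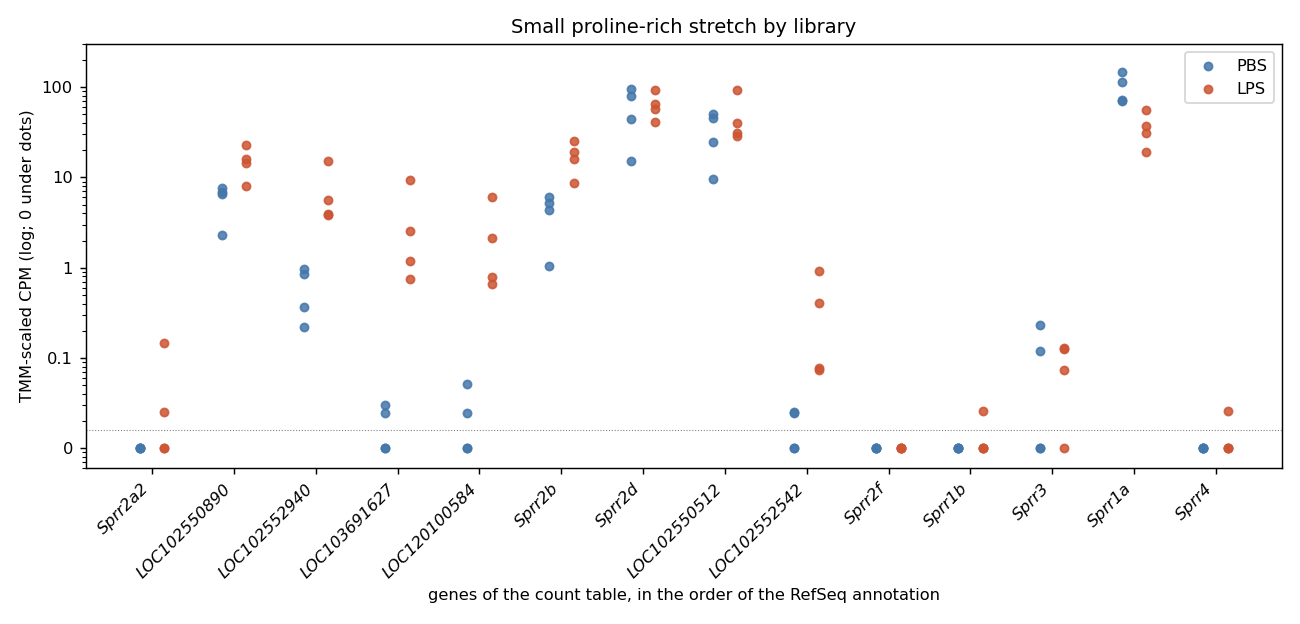
TMM-scaled CPM (log axis) in 4 PBS and 4 LPS libraries of the genes of the count table from Sprr2a2 to Sprr4, placed by their order along the chromosome and not by distance, with a value of 0 drawn below the dotted line. Sprr2b and the 4 placeholder genes drawn to its left sit higher in LPS, Sprr2d and LOC102550512 overlap, and Sprr1a sits lower in LPS.

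Other small proline-rich members were too low to test. Sprr3, abundant in the oesophagus, had 13 counts in each group, Sprr2a2 0 in PBS and 7 in LPS, and Sprr1b and Sprr4 each 0 and 1. Sprr2f had no count.

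Transglutaminases, the cross-linking enzymes of the envelope, showed no called member among the 4 tested. At an unadjusted p under 0.05 none of the 4 passed either, and DESeq2 called 0 of them. Tgm1, the keratinocyte enzyme, measured 30.7, 9.41, 8.75 and 7.67 CPM in PBS and 9.58, 5.27, 24.7 and 16.1 CPM in LPS. PBS replicate 1 alone stood above the LPS range. The log2 fold change was -0.02 (95% interval -1.33 to 1.28, adjusted p = 0.982) and 0.69 without that library.

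Tgm2, the broadly expressed tissue transglutaminase, measured 1594, 613, 659 and 473 CPM in PBS and 1287, 853, 1097 and 507 CPM in LPS. PBS replicate 1 was again the highest (log2 fold change 0.16, -0.78 to 1.11, adjusted p = 0.818). Tgm5, an epidermal enzyme, ranged from 3.96 to 11.4 CPM in PBS and 3.84 to 21.0 CPM in LPS (0.50, -0.76 to 1.76, adjusted p = 0.574), and without LPS replicate 3 its log2 fold change was -0.21. The intervals leave room for differences of 2-fold or more in either direction for Tgm1. Tgm7 gave -0.79 (-1.70 to 0.11), and Tgm3, which acts late in hair and skin, had 3 counts in PBS and 6 in LPS.

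Spink inhibitors gave the largest falls among the tested members, led by Spink13 and Spink7, which passed the filter through the PBS group alone. Spink7, an inhibitor known from the oesophageal lining, measured 1.33, 18.9, 1.70 and 5.19 CPM in PBS and 0.173, 0.0256, 0.101 and 0.0245 CPM in LPS. The PBS libraries ranged widely, with replicate 2 far above the rest, yet all 4 LPS libraries lay below the lowest of them. Over the groups it had 1057 and 13 counts, a ratio of 84.7 (exact 95% interval 49.3 to 160, counting error only). The log2 fold change was -6.33 (SE 1.12, adjusted p = 0.0076). It was -5.02 with PBS replicate 2 left out and -6.99 with LPS replicate 1 left out, called in both cases, but limma-voom did not call it without (-5.71, adjusted p = 0.0640) or with library weights (-5.94, adjusted p = 0.104).

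Spink13, known from the epididymis, had 30, 130, 18 and 57 counts in PBS replicates 1 to 4 and 0, 0, 0 and 1 in LPS. PBS replicate 2 was again the highest. With 235 counts against 1, the ratio was 245 (exact 95% interval 43.5 to 9713, counting error only), and edgeR gave an adjusted p of 0.0032. Its fitted log2 fold change was -7.35, against -8.90 when LPS replicate 4 was left out and -6.68 when PBS replicate 2 was. Spink7, Spink13 and Spink10 lie next to each other in the RefSeq gene order, Spink13 overlaps Spink10 there, and Spink10 had no count.

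Spink8 measured 3.19, 1.58, 3.30 and 1.47 CPM in PBS and 1.26, 0.563, 0.431 and 0.782 CPM in LPS. The groups did not overlap, and LPS replicate 1 came nearest to PBS. The level fell by 1.65 (SE 0.44, adjusted p = 0.0350). Leaving out PBS replicate 1, 2 or 3 or LPS replicate 2, 3 or 4 ended that call (adjusted p 0.0534 to 0.0898, log2 fold change -1.81 to -1.45). It was also lost with PBS replicate 1 and LPS replicate 2 both dropped (-1.36, adjusted p = 0.134) and in limma-voom with library weights (-1.48, adjusted p = 0.0526).

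Spink5 encodes the multi-domain inhibitor of skin kallikreins. It measured 1.25, 2.30, 1.03 and 5.04 CPM in PBS and 0.395, 0.154, 0.810 and 1.34 CPM in LPS. LPS replicate 4 overlapped the PBS range, and PBS replicate 4 was the highest. The log2 fold change was -1.82 (95% interval -3.45 to -0.19, adjusted p = 0.116) and -1.17 without PBS replicate 4, while DESeq2 called it (adjusted p = 0.0401). Of the other 7 Spink members, 5 had no count and Spink2 and Spink4 had 9 and 7 counts in PBS and 10 and 19 in LPS.

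Kallikreins were sparse. Of 23 members 13 had no count, 6 were too low to test and 4 were tested, of which 1 was lower. Klk1c3, of the tissue kallikrein branch that is expanded in the rat, measured 1.33, 1.88, 2.56 and 1.89 CPM in PBS and 0.346, 0.922, 0.431 and 0.513 CPM in LPS. All LPS libraries lay below all PBS libraries, with LPS replicate 2 the closest. The level fell by 1.79 (SE 0.38, adjusted p = 0.0151), 3.45-fold, and was called in all 17 alternatives. Its branch consists of close copies, so reads could belong to another copy.

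The proteases that cut envelope and desmosomal proteins in skin were low in both groups. Klk8 ranged from 1.01 to 2.10 CPM in PBS and from 0.640 to 1.34 CPM in LPS (log2 fold change -0.88, 95% interval -1.77 to 0.01, adjusted p = 0.159). Klk14, a trypsin-like member, gave -0.64 (adjusted p = 0.438), and Klk11 gave 0.21 (adjusted p = 0.831). Klk7, the chymotrypsin-like enzyme of skin, had 0 counts in PBS and 1 in LPS. Klk15 failed the filter but had 25, 8, 33 and 1 counts in PBS and 0 in each LPS library, at least 23.3-fold lower against 3 counts over the LPS group. It was picked out after its values were seen, and the fit with no filter called it lower.

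**Figure D4:**
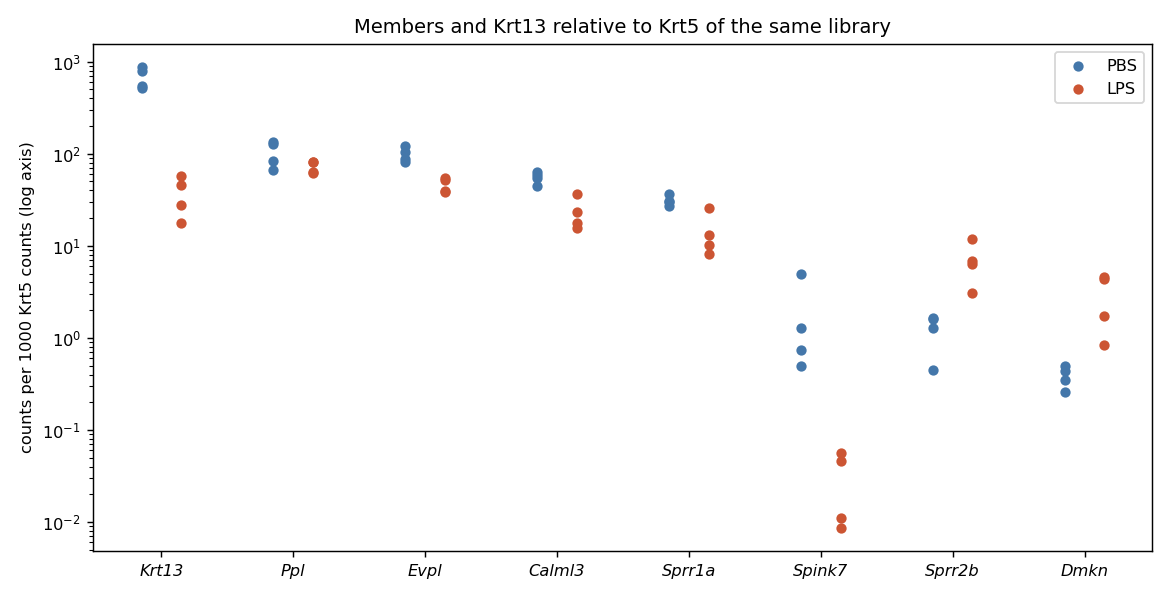
Counts of 8 genes per 1000 Krt5 counts (log axis) in each of 4 PBS and 4 LPS libraries. Evpl, Calml3, Sprr1a, Spink7 and Krt13 lie lower in LPS without overlap, Sprr2b and Dmkn higher, and Ppl overlaps.

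Some called members were set against Krt5 within each library, and most of them kept the non-overlapping groups they already had in CPM. Spink13, Spink8 and Klk1c3 were not set against it. Evpl gave 80.4 to 121 counts per 1000 Krt5 counts in PBS and 38.8 to 55.1 in LPS. Calml3 gave 45.1 to 62.8 and 15.6 to 36.8. Sprr1a, with 26.8 to 36.5 and 8.22 to 25.9, came close to overlapping, and Ppl, with 66.4 to 134 and 61.1 to 80.9, overlapped. Sprr2b gave 0.446 to 1.64 in PBS and 3.04 to 11.8 in LPS, and Dmkn 0.260 to 0.499 and 0.833 to 4.56. Spink7 gave 0.501 to 4.995 and 0.00865 to 0.0566. Krt13 gave 521 to 874 and 17.8 to 57.2. Against Epcam, a marker of columnar cells, Evpl gave 469 to 710 per 1000 in PBS and 168 to 323 in LPS. Such ratios describe these libraries and do not tell which of the genes changed. They carry no test and were chosen after the values were seen.

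The libraries ranked differently from member to member. Among PBS libraries, replicate 2 was the highest for 11 of the 24 tested members, and replicates 1 and 4 were the lowest for 8 each. Among LPS libraries, replicate 3 was the highest for 9 and replicate 4 for 8, while replicate 2 was the lowest for 8.

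Genes that work with these members, listed apart from them, were mostly not called, as was true of all genes tested. Over all genes tested, 16.9% were called in either direction, and the median log2 fold change was 0.01. The lists here and below are to be read beside these values. In a list of proteases and inhibitors that act upstream, such as matriptase, 1 of 17 tested rose and 1 fell, with a median log2 fold change of -0.21. Tmprss11e, a membrane protease of squamous cells, rose by 3.48 (adjusted p = 0.0386) with 168, 6, 189 and 195 counts in LPS, so that LPS replicate 2 stayed in the PBS range of 3 to 21. Tmprss11a fell by 0.63 (adjusted p = 0.0324). Leaving out any 1 library except LPS replicate 2 ended the Tmprss11e call (adjusted p 0.0525 to 0.0977; limma-voom 0.231), and any except PBS replicate 1 the Tmprss11a call (0.0514 to 0.0921).

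Genes of the barrier lipids, which are attached to the finished envelope, had a median log2 fold change of 0.03, with 1 of 13 tested higher and 1 lower. Ugcg, which makes glucosylceramide, measured 50.1 ± 2.19 CPM in PBS and 211 ± 128 CPM in LPS (SD, n = 4) and rose by 2.08 (SE 0.35, adjusted p = 0.0064). The lipase gene Lipm fell by 1.73 (adjusted p = 0.0419). It missed the threshold with limma-voom (adjusted p = 0.0975) and when PBS replicate 1, 2 or 4 or LPS replicate 1, 3 or 4 was left out (0.0514 to 0.106).

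Of 25 tested regulators of squamous differentiation, 2 rose and 3 fell, and the median was -0.18. Klf4, a factor needed for the skin barrier, fell from 513 ± 109 to 292 ± 21.5 CPM (SD, n = 4; -0.81, SE 0.15, adjusted p = 0.0096). Maf, which acts in late keratinocyte differentiation and in macrophages, stood at 94.4 ± 11.04 CPM in PBS and 169 ± 32.5 CPM in LPS and rose (0.84, SE 0.15, adjusted p = 0.0073). Grhl1, a regulator of desmosomal genes, fell by 1.46 (SE 0.35, adjusted p = 0.0248) and was named after its values were seen, like Prdm1 (0.68) and Notch3 (-0.58), the others called.

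Promoter windows show what sequence stands before the annotated starts of members that moved in opposite directions. For Sprr2a2, Sprr2b, Sprr2d and Sprr2f that start is the start codon, so their windows stand before the coding sequence. RefSeq windows on GRCr8 were matched for 61 of the 72 members and 20 of the 24 tested, and the 250 bases before the start were searched on both strands for 3 motifs. TGANTCA, an AP-1 site, stood in 11 of 61 members (18.0%) and 6.34% of all 33469 windows, TTCNNNGAA, a STAT site, in 8 (13.1%) and 7.67%, and TATAAA in 15 (24.6%) and 12.9%. Members were counted by symbol and the share of all windows by window, so these percentages differ in unit. Many members lie side by side as copies, so their windows are not independent. Windows follow for Sprr1a and Spink7, which fell, and Dmkn, which rose, 5′ to 3′ in the gene's direction, with matches in capitals.
Sprr1a (chr2:180752626-180752875, minus strand): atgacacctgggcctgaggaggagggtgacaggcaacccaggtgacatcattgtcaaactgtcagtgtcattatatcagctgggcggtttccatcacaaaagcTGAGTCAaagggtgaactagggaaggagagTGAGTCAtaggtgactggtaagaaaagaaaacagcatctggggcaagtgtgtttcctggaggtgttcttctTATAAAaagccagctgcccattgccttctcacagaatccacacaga
Spink7 (chr18:58320068-58320317, minus strand): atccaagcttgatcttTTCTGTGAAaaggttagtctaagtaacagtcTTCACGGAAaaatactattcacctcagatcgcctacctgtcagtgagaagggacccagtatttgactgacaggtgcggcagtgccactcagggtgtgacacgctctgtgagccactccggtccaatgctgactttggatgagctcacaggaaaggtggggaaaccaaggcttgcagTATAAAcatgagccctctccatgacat
Dmkn (chr1:95141370-95141619, plus strand): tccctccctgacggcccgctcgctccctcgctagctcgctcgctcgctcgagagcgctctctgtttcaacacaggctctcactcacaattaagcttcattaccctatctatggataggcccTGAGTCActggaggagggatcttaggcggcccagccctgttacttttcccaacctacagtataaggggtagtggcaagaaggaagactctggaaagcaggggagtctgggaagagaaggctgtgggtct
Sprr1a held TGAGTCA at 147 and 117 bases before the start and TATAAA at 46. Spink7 held 2 STAT-type matches, at 234 and 203, and TATAAA at 27. Dmkn held TGAGTCA at 129. Sprr2b, whose annotated start is its start codon, held a STAT-type match 66 bases before it and TTTATA, which is TATAAA on the other strand, at 90. A match is a description of the letters, and no binding was measured here.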

How the data were processed

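Cervix RNA was taken up in TRIzol and turned into libraries by the VAHTS Universal V6 kit, per the labels' protocols. The values the authors deposited are unnormalized counts of whole reads for each gene symbol. Of tools, the submitters' processing notes list HISAT2, fastp, HTSeq and R 3.2.0, with mRatBN7.2 as the build, and assign them no role. With the strand setting and the handling of reads that map to several places not given in the sources used here, reads of overlapping genes and of close copies (Sprr2, Klk1c) may be misassigned or missing. Columns were matched by library name, in which LPS replicate 4 carries the number 5. Libraries of a group are biological replicates by the design text. Within a group, no pair agreed within sampling noise (chi-square per degree of freedom 54.1 to 166 over 12 pairs).

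Of 29884 genes, 22854 had a count and 16117 passed edgeR's filterByExpr by group. The groups were compared in edgeR 4.0.16 under R 4.3.3 (trimmed mean of M values, TMM, scaling, robust quasi-likelihood fits, no covariate), with Benjamini-Hochberg adjustment over all genes tested and a threshold of 0.05. All adjusted p-values come from it unless another tool is named. The standard error (SE) is the log2 fold change divided by the square root of F, and intervals are 95%. Exact Clopper-Pearson intervals and the floor of 3 counts cover counting error only. The fit was also run on simulated counts drawn with the spread estimated from these data, and no result here rests on that run.

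Other settings tried were scaling by RLE or the upper quartile, no filter, a minimum of 1 CPM in 4 libraries, limma-voom (limma 3.58.1) without and with library weights, DESeq2 1.42.0, each library left out, PBS replicate 1 and LPS replicate 2 both left out, and a replicate block. Members and lists were chosen with earlier results of these data known. Named were every called member, the 3 tested members with the highest CPM in each role, members whose groups did not overlap, and the 2 called genes with the lowest adjusted p of each list whose genes are described. Hrnr had no row and was not analysed here. Sequences are RefSeq's on GRCr8, which is not the build the notes name, so no position from it was joined to the counts.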

Additional observations from a re-analysis of the deposited data

Results flagged for a closer look

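Among 39 groups of 4 libraries, 3 held a library far from the other 3, and chance alone gives about 1 in 20 such groups. Tgm2 in PBS replicate 1 measured 1594 CPM, where the next highest PBS library had 659 CPM. Tgm1 in the same library measured 30.7 CPM, where the next had 9.41 CPM. Spink13 in LPS replicate 4 measured 0.0245 CPM, which is 1 count, where the other LPS libraries had 0.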

How the results depend on the processing

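All 10 called members kept their direction in every alternative in which they were tested. Evpl and Klk1c3 were called in all 17, and Spink13 in the 16 that tested it, since it failed the filter of 1 CPM in 4 libraries. The 2 members called higher became 1 with limma-voom, 1 with limma-voom and library weights, 1 with PBS replicate 1 and LPS replicate 2 both left out, and 1 to 2 with single libraries left out. The 8 called lower became 5 to 7 with single libraries left out, lowest without PBS replicate 2. Over all genes, 904 to 1385 were higher and 563 to 1199 lower with 1 library left out, both lowest without PBS replicate 2, and DESeq2 called 2099 higher and 2089 lower. Same-numbered libraries did not deviate together (correlations -0.181 to 0.208, 1 of 4 above 0.1), and 2 of 8 libraries correlated best with their own number, so the labels' numbers were not taken as pairs. A replicate block gave 0 members higher and 5 lower, and 1151 and 845 genes over the table. It did not call Dmkn, Sprr2b, Sprr1a, Spink8 or Calml3 (adjusted p = 0.0521). Uncalled genes near 0 changed sign. Tgm1 was 0.0028 with limma-voom, 0.027 with weights, 0.024 with the block, 0.96 with both libraries left out and -0.46 to 0.69 with 1 left out. With 1 library left out, Tgm2 ran from -0.034 to 0.68, Tgm5 from -0.21 to 0.86, Sprr2d from -0.18 to 0.47 and Krt14 from -0.034 to 0.27. The cause was not tested. No scaling moved the median of all genes by more than 0.01. At this depth, 23 members with a count had too few to be tested.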
